A study of Mus musculus with 6 samples.

Results

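Integrins and laminins were examined in liver metastases of 4T1 cells with and without silencing of Zdhhc17. The genes were taken from the count table by their symbols: every Itga gene, every Itgb gene with a number and every laminin chain gene, leaving out Itga2b, Itgb3, Itgax and Itgae and names that are not integrin subunits. This gave 34 genes of 24167 in all, 23 for integrin subunits and 11 for laminin chains. No measured value enters that rule, but the genes were chosen with earlier results of these data known. After the filter on low counts 32 of them were tested (21 integrins and all 11 laminins). Itgad and Itgb2l had too few counts.

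4T1 is a mouse triple-negative breast cancer line, and Zdhhc17 encodes an enzyme that attaches palmitate to cysteines of other proteins. The injected cells of both groups carried a lentiviral pLKO.1 hairpin vector and had been selected with puromycin; the hairpin was a scrambled one in the controls (shSCR) and targeted Zdhhc17 in the others (shZdhhc17). They went into the tail vein of female BALB/c mice aged 6 to 8 weeks by hydrodynamic injection, 500000 cells each, and metastases were cut out of the livers after 10 days. Polyadenylated RNA was sequenced from 3 libraries per group; host liver, vessel and immune cells in the tissue carry no hairpin. Nothing in the labels ties each library to its own mouse, so p-values measure only how these samples vary, which may be technical. In bulk tissue, fewer cells of a type cannot be told apart from less RNA per cell.

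Integrins are cell-surface receptors made of an alpha and a beta subunit; they bind matrix proteins or ligands on other cells and link them to the cytoskeleton. Laminins are trimers of an alpha, a beta and a gamma chain and are the main adhesive proteins of basement membranes. A trimer is named by its chain numbers: Lama5 with Lamb1 and Lamc1 encodes laminin-511, and Lama4 with Lamb1 and Lamc1 encodes laminin-411 of blood vessels. Lama3 and Lamb3 encode chains of epithelial laminin. The integrin alpha6beta4 anchors epithelial cells to laminin in hemidesmosomes. In the liver, the sinusoids lack a continuous basement membrane, while bile ducts and larger vessels have one.

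Total counts ran from 15832837 to 19186615 per library, and 21728 to 22269 genes were detected in each. Zdhhc17 itself stood at 33.7, 32.4 and 34.2 CPM (the count of a gene scaled to a common library size) in shSCR replicates 1, 2 and 3 and at 25.9, 27.8 and 26.0 in the shZdhhc17 replicates (log2 fold change -0.33 ± 0.11 SE; edgeR adjusted p = 0.383). Epithelial and hepatocyte markers were detected in every library. The 14 carcinoma epithelial markers summed to between 1773 and 3242 CPM and the 14 hepatocyte markers to between 20162 and 57343 CPM. The carcinoma list shares genes with a bile duct (cholangiocyte) list that summed to between 1822 and 3220 CPM, so it does not single out tumour cells. Hepatocyte markers were lowest in shSCR replicate 3. No gene of those lists was at 0 in any library.

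Per length, the subunits of integrin alpha3beta1 were the most abundant among the receptors, and the chains of laminin-511 were high among the ligands. Levels between genes are given as CPM per kb of exonic length, averaged over the 6 libraries. Itgb1, the beta subunit that pairs with most alpha subunits, stood at 166 CPM per kb and made up 63.2% of the summed level of beta subunits. Itga3, which binds laminin, stood at 120 CPM per kb, 55.7% of the alpha subunits. Itga5, the fibronectin receptor subunit, followed at 25.4, then the laminin receptor subunit Itga6 at 15.5 and Itgav at 12.7 CPM per kb. The ranges of Itga3, Itga5 and Itga6 over the libraries did not overlap with one another, whereas each neighbour in the order from Itga6 through Itgav, Itga2, Itga9, Itgal and Itgam to Itga1 (5.49 CPM per kb) overlapped with the next. Itga7, Itga8 and Itga4 were lower, at 2.01, 1.84 and 1.80 CPM per kb, and Itga10 and Itga11 lowest among the tested alpha subunits, at 0.690 and 0.444. Among beta subunits, Itgb2 (35.0 CPM per kb), Itgb5 (33.2) and Itgb4 (24.0) came next to Itgb1 with overlapping ranges, and Itgb7 (4.19), Itgb8 (0.401) and Itgb6 (0.143) were lower still.

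Lama5 was the leading laminin alpha chain at 35.7 CPM per kb, 85.5% of the alpha chains, with Lama4 and Lama3 at 2.46 CPM per kb each, Lama1 at 0.697 and Lama2 at 0.432. Of the beta chains, Lamb1 stood at 29.7, Lamb2 at 8.64 and Lamb3 at 5.00 CPM per kb. The gamma chain Lamc1 stood at 33.2 CPM per kb and Lamc3 at 0.247, without overlap. Lama3 varied more between libraries than Lamc1: within shZdhhc17 its highest level was 2.79 times its lowest, against 1.27 times for Lamc1.

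**Figure D1:**
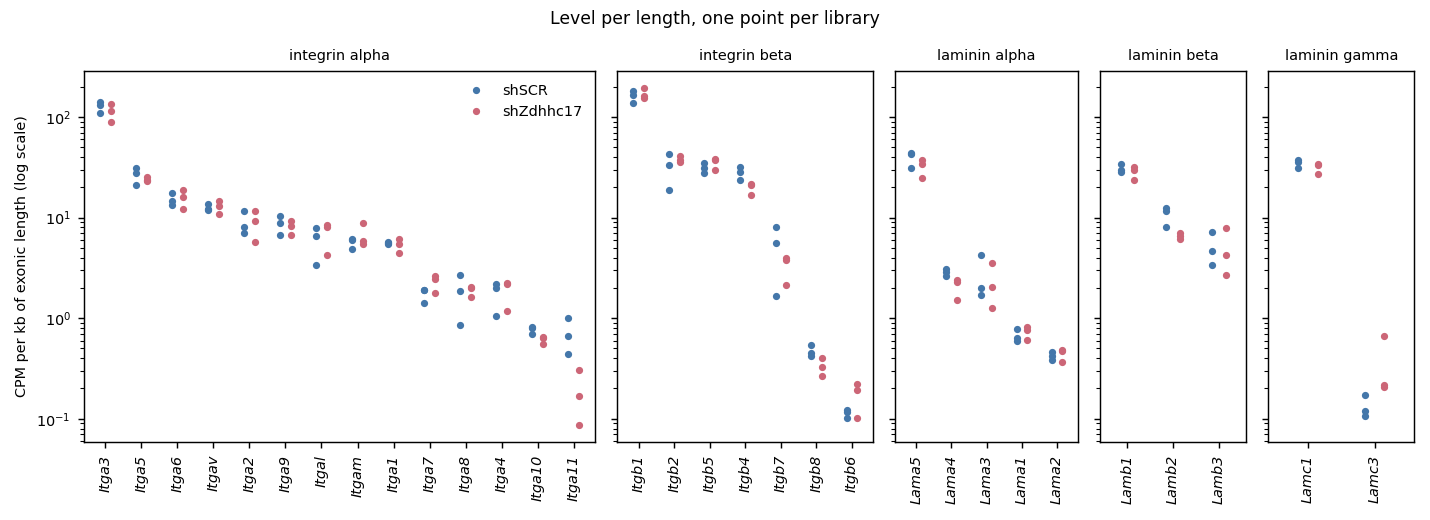
CPM per kb of exonic length (log axis) of tested integrin and laminin genes, ordered by mean within each family, with 1 point per library (blue shSCR, red shZdhhc17). Itgb1 at 166 and Itga3 at 120 CPM per kb stand above all other subunits, and Itga11 lies near the bottom, with all shZdhhc17 points under all shSCR points.

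No integrin or laminin gene passed the threshold in shZdhhc17 against shSCR metastases. By edgeR's quasi-likelihood test 0 of 15567 genes had an adjusted p under 0.05 (a background of 0%), and the smallest adjusted p among the members was 0.307. At an unadjusted p under 0.05 there were 5 of 32 members, 15.6%, beside 11.4% of all tested genes (1780). Of these 4 were lower in shZdhhc17 (Itga11, Itgb4, Lama4 and Lamb2; 12.5% of the members beside 6.71% of all tested genes) and 1 higher (Lamc3; 3.13% beside 4.72%). The groups did not overlap in 7 members, 21.9%, beside 17.1% of all tested genes. In 6 of these 7 the shZdhhc17 libraries were the lower ones (18.8% of the members beside 9.62% of all tested genes), and in Lamc3 they were the higher (3.13% beside 7.48%). The shares in the lower direction exceeded those of all genes, but they rest on 4 and 6 genes and were not tested. limma voom likewise called 0 genes, with 4 members at an unadjusted p under 0.05. DESeq2 called 204 genes (1.22% of those with an adjusted p), among them 1 member, Itga11, as did the authors' deposited table (204 genes, 0.844%).

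The median log2 fold change of the 32 members was -0.043, beside 0.0017 over all tested genes, with 18 members negative and 14 positive. With library totals alone as scaling, 25 were negative and 7 positive, but there the median of all genes was itself at -0.13 and that of the members at -0.16. Laminins had 8 of 11 negative with a median of -0.13, and integrins 10 of 21 with a median of 0.032. Without shZdhhc17 replicate 3 the number of negative laminins was 5, and without shSCR replicate 1 it was also 5. The count of 5 members at an unadjusted p under 0.05 became 3 without shSCR replicate 2, 3 without shSCR replicate 3 and 2 without shZdhhc17 replicate 3, while the share over all tested genes went from 11.4% to 8.16%, 7.63% and 5.90%. Itga11 and Lamb2 were among them without each library in turn.

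**Figure D2:**
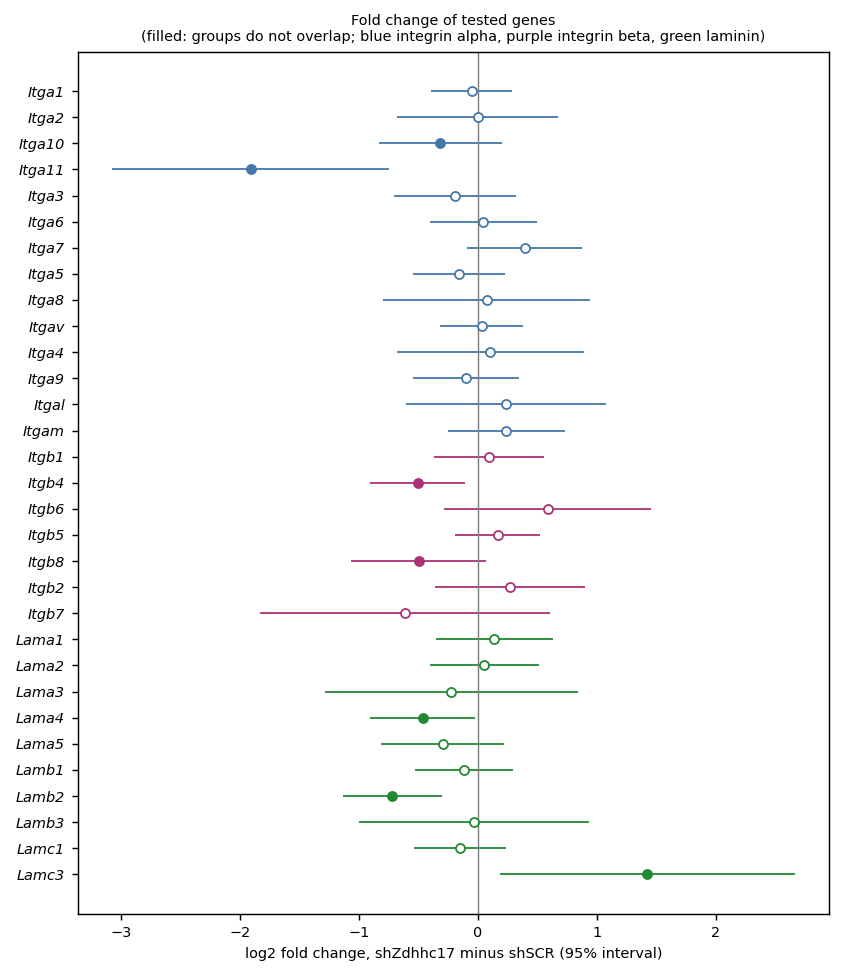
Log2 fold change of shZdhhc17 minus shSCR with its 95% interval for tested integrin and laminin genes; filled points mark genes whose groups do not overlap. Itga11 at -1.91 and Lamb2 at -0.72 have intervals below 0 and Lamc3 at 1.43 has one above 0, while Itgb1 and Itga3 span 0.

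Itga11 showed the largest difference among the 32 tested members, with 3.76-fold less in shZdhhc17 metastases. It encodes the alpha subunit of a fibrillar collagen receptor known from fibroblasts. Itga11 (ENSMUSG00000032243.9) stood at 2.23, 5.18 and 3.40 CPM in shSCR replicates 1, 2 and 3, from 41, 99 and 61 counts. In the shZdhhc17 replicates it stood at 0.440, 1.55 and 0.857 CPM, from 7, 26 and 13 counts. Every shZdhhc17 library lay below every shSCR library. The log2 fold change was -1.91 ± 0.50 (SE; 95% interval -3.08 to -0.74; edgeR adjusted p = 0.313). DESeq2 gave -1.91 with an adjusted p of 0.0293. That call held without shSCR replicate 1 (DESeq2 adjusted p = 0.0102) and without shZdhhc17 replicate 2 (DESeq2 adjusted p = 0.0148), and was lost without any of the other libraries. The ratio of Itga11 to Itga1 counts, which does not depend on library scaling, was 0.0210, 0.0502 and 0.0332 in shSCR and 0.00528, 0.0135 and 0.00838 in shZdhhc17, again without overlap. Stellate cell and fibroblast markers were lower as well: 8 of 12 had a negative log2 fold change, none was at 0, and their summed level ran from 5018 to 9383 CPM in shSCR and from 3956 to 4813 in shZdhhc17. Their part in the Itga11 difference was not tested.

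The other collagen receptor subunits had log2 fold changes closer to 0. Itga10 (ENSMUSG00000090210.8), a collagen receptor subunit known from cartilage, was at 4.20, 4.13 and 3.57 CPM in shSCR and 3.40, 2.87 and 3.30 in shZdhhc17. The groups did not overlap, but the interval of its log2 fold change ran from -0.83 to 0.20 (-0.32 ± 0.22 SE; edgeR adjusted p = 0.593). In the GENCODE M21 annotation, 33.5% of its exonic bases are shared with Gm42957 on the same strand. The count table holds no gene named Gm42957. Whether the annotation used for counting had it is not known, so the Itga10 counts are uncertain. Itga1 (ENSMUSG00000042284.11), a receptor subunit for collagen IV and laminin, was at 106, 103 and 102 CPM in shSCR and at 83.5, 115 and 102 in shZdhhc17. The groups overlapped, with a log2 fold change of -0.05 (interval -0.39 to 0.29; edgeR adjusted p = 0.905). Itga2, a collagen and laminin receptor subunit of epithelia and platelets, had 63.4 CPM in both groups with a wide spread (SD 17.3 and 21.6, n = 3 each).

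The promoter stretches of Itga11 and Lamb2 are shown because these 2 genes had the smallest p-values of the members. They are the 250 bases before the gene's start, from RefSeq on GRCm38.p6, which is another build than that of the counts, and they read 5′ to 3′ along the gene. Itga11 lies at chr9:62677605-62677854 on the plus strand and Lamb2 at chr9:108479612-108479861 on the plus strand. Capitals mark matches to the letters CAGAC, a box that Smad proteins bind, on either strand.
Itga11: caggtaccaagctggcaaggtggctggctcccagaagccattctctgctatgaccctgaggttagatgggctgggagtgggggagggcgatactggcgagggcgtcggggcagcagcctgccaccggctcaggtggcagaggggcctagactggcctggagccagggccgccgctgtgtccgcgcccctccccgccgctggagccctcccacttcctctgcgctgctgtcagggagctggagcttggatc
Lamb2: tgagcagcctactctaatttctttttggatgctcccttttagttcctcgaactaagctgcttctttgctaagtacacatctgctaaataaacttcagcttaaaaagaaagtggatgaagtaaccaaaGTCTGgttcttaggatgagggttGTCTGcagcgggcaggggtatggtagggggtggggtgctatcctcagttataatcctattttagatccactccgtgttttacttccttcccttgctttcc
Itga11 held 0 and Lamb2 held 2 such boxes, and 42.2% of all 32851 promoters held at least 1. Neither window held an AP-1 site (TGANTCA), a GC box (GGGCGG) or the core of a hypoxia response element (ACGTG), each searched on both strands and present in 6.75%, 32.7% and 16.6% of promoters. The search says only which letters are in these windows.

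Among laminin-binding integrins, Itgb4 was lower in every shZdhhc17 library, and the values of its only alpha partner, Itga6, overlapped between the groups. Itgb4 (ENSMUSG00000020758.16), the beta subunit of hemidesmosomes, was at 168, 223 and 201 CPM in shSCR and at 152, 148 and 116 in shZdhhc17. All shZdhhc17 values lay below all shSCR values, with a log2 fold change of -0.51 ± 0.17 (SE; interval -0.91 to -0.11; edgeR adjusted p = 0.378). Itga6 (ENSMUSG00000027111.17) was at 160, 131 and 121 CPM in shSCR and at 169, 146 and 110.7 in shZdhhc17, a log2 fold change of 0.05 (interval -0.40 to 0.50; edgeR adjusted p = 0.941) that turned to -0.067 with library totals alone. The ratio of Itgb4 to Itga6 counts was 1.05, 1.70 and 1.67 in shSCR and 0.899, 1.02 and 1.05 in shZdhhc17. shSCR replicate 1 fell within the range of the shZdhhc17 libraries, so the ratios of the groups overlapped. The carcinoma epithelial markers overlapped between groups in summed level (2125 to 3242 CPM in shSCR and 1773 to 3196 in shZdhhc17), with 11 of 13 tested markers negative. Which cells the Itgb4 RNA came from, and the part of epithelial cells in its difference, were not tested.

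Itga3 (ENSMUSG00000001507.17) was at 626, 757 and 813 CPM in shSCR and at 764, 654 and 506 in shZdhhc17. These groups overlapped (log2 fold change -0.19 ± 0.22 SE; interval -0.71 to 0.32; edgeR adjusted p = 0.759). Its partner Itgb1 (ENSMUSG00000025809.16) was at 738, 561 and 673 CPM in shSCR and at 801, 665 and 635 in shZdhhc17, with a log2 fold change of 0.09 (interval -0.37 to 0.55; edgeR adjusted p = 0.878), or -0.029 with library totals alone. Itga7, a laminin receptor subunit of muscle, was at 14.1 ± 2.37 CPM in shSCR and 18.5 ± 3.76 in shZdhhc17 (SD, n = 3 each), with overlapping groups.

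For the receptors of fibronectin and other ligands with the tripeptide RGD, the groups overlapped in every subunit but Itgb8. Itgav (ENSMUSG00000027087.12), which pairs with several beta subunits, was at 145, 131 and 129 CPM in shSCR and at 158, 140 and 117 in shZdhhc17 (log2 fold change 0.03; interval -0.32 to 0.38; edgeR adjusted p = 0.952), and the log2 fold change was -0.090 with library totals alone. Itga5 was at 132 ± 25.3 and 119 ± 5.91 CPM, and Itga8, a nephronectin receptor subunit, at 13.2 ± 6.75 and 13.9 ± 1.79 CPM, in shSCR and shZdhhc17 in that order (SD, n = 3 each). Itgb5 (ENSMUSG00000022817.16), a partner of Itgav, was at 110.9, 124 and 98.9 CPM in shSCR and at 106, 136 and 133 in shZdhhc17, with a log2 fold change of 0.17 (interval -0.19 to 0.52; edgeR adjusted p = 0.689). Itgb8 (ENSMUSG00000025321.15), whose complex with the alphaV subunit activates latent TGF-beta, was lower in each shZdhhc17 library: 2.96, 3.64 and 4.42 CPM against 6.00, 4.60 and 4.97 in shSCR. Its log2 fold change was -0.50 ± 0.24 (SE; interval -1.06 to 0.07; edgeR adjusted p = 0.476). Itgb6, another epithelial partner of the alphaV subunit, had only 11 to 25 counts per library and overlapping groups (0.814 ± 0.0728 CPM in shSCR and 1.22 ± 0.443 in shZdhhc17; SD, n = 3 each).

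**Figure D3:**
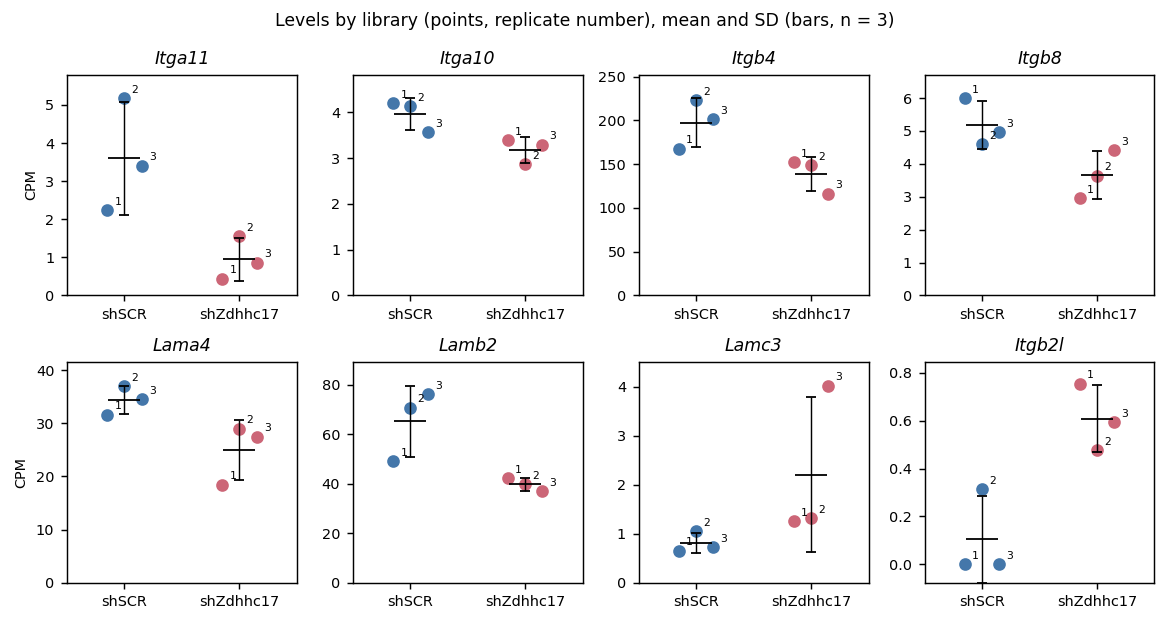
CPM of 8 genes in each library (points, labelled by replicate number) with group mean and SD (bars, n = 3); blue is shSCR and red shZdhhc17. Itga11, Itga10, Itgb4, Itgb8, Lama4 and Lamb2 are lower and Lamc3 and Itgb2l higher in every shZdhhc17 library, and Lamc3 in shZdhhc17 replicate 3 stands alone at 4.02 CPM.

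Among leukocyte integrins, Itgal, Itga4 and Itgb7 varied widely among the libraries of both groups, and Itgb2 among those of shSCR. The groups overlapped in every tested leukocyte subunit. Itgal (ENSMUSG00000030830.19), the alpha subunit of LFA-1, was at 22.1, 51.2 and 43.0 CPM in shSCR and at 27.9, 53.5 and 55.4 in shZdhhc17 (log2 fold change 0.23; interval -0.61 to 1.08; edgeR adjusted p = 0.820). Itga4, which binds VCAM-1 and fibronectin, was at 14.6, 30.8 and 27.6 CPM in shSCR and 16.5, 30.6 and 31.3 in shZdhhc17. Itgb7, its gut-homing partner, was at 4.63, 15.4 and 22.1 CPM in shSCR and 5.98, 10.5 and 11.1 in shZdhhc17. In all 3 genes replicate 1 of each group was the lowest library of that group. The summed T cell markers were lowest in the same libraries: 12.5, 47.1 and 51.2 CPM in shSCR and 10.6, 19.1 and 19.2 in shZdhhc17, with 10 of 10 markers negative. Natural killer, dendritic, B cell and macrophage markers were also lowest in replicate 1 of each group, so the pattern was not particular to T cells. Neutrophil markers were lowest in replicate 1 only in shSCR. Itgal and Itga4 had positive log2 fold changes (0.23 and 0.10), unlike the T cell markers. The part of these cell types in these levels was not tested.

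Itgb2 (ENSMUSG00000000290.14), the common beta subunit of leukocytes, was at 57.7, 102 and 130 CPM in shSCR and at 110, 125 and 115 in shZdhhc17. Its lowest value was in shSCR replicate 1 (log2 fold change 0.27; interval -0.36 to 0.90; edgeR adjusted p = 0.717). Without that library the log2 fold change was 0.0087, and without shSCR replicate 3 it was 0.54. Itgam, the myeloid alpha subunit of Mac-1, was at 24.7, 30.02 and 30.9 CPM in shSCR and 44.7, 29.4 and 27.2 in shZdhhc17, highest in shZdhhc17 replicate 1. In the GENCODE M21 annotation it shares 68.7% of its exonic bases with Gm49368 on the same strand. The count table holds no gene named Gm49368. Whether the annotation used for counting had it is not known, so the Itgam counts are uncertain. Itga9 (ENSMUSG00000039115.14), a tenascin and osteopontin receptor subunit, was at 52.2, 67.6 and 79.6 CPM in shSCR and 51.5, 70.7 and 64.1 in shZdhhc17, with a log2 fold change of -0.10 (interval -0.54 to 0.35; edgeR adjusted p = 0.862).

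Itgb2l, which encodes a beta2-like protein of maturing neutrophils, was too scarce to test with the filter. It had 0, 6 and 0 counts in shSCR and 12, 8 and 9 in shZdhhc17, or 0, 0.314 and 0 CPM against 0.755, 0.478 and 0.594. The groups did not overlap. In the fit without a filter its log2 fold change was 2.43 ± 0.93 (SE; edgeR adjusted p = 0.471), and the authors' deposited table gives 2.52 with a q of 0.347. Neutrophil markers did not overlap between the groups either, with 11 of 12 positive, none at 0, and sums of 238 to 419 CPM in shSCR and 529 to 993 in shZdhhc17. Their part in the Itgb2l counts was not tested. Itgad, another leukocyte alpha subunit, had 0 to 2 counts per library.

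**Figure D4:**
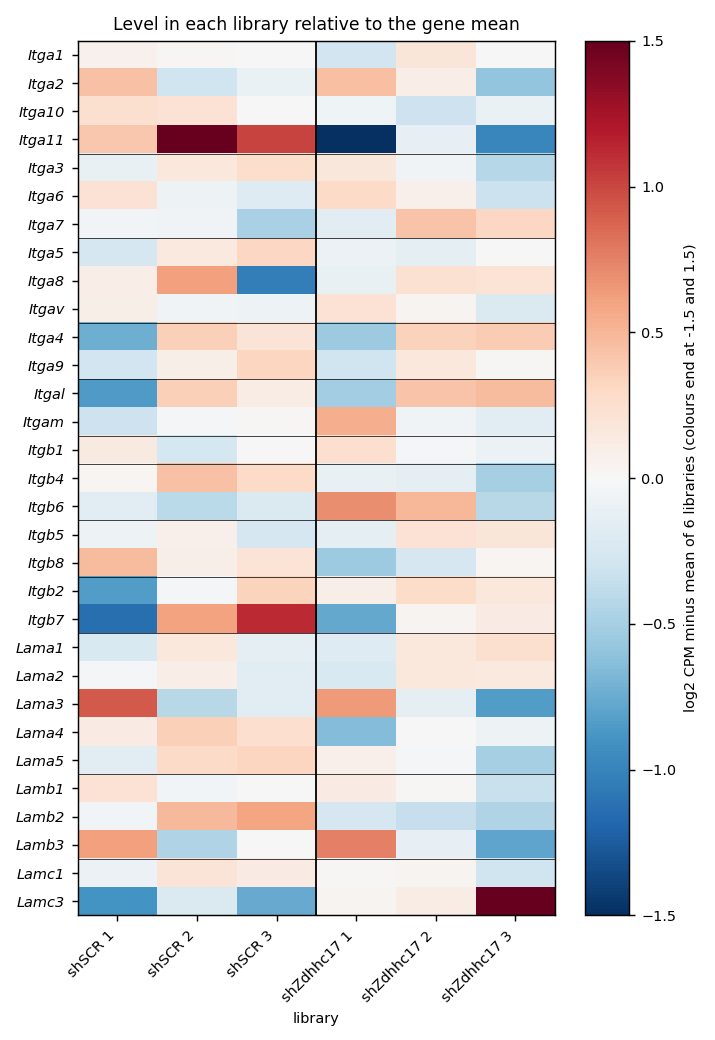
Log2 CPM of tested integrin and laminin genes in each library minus each gene's mean over the 6 libraries; red is above and blue below the mean, and thin lines separate the lists by role. Itga11 is red in all shSCR and blue in all shZdhhc17 libraries, whereas Lama3, Lamb3, Itgal and Itgb7 differ mainly between libraries of a group.

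Of the laminin chains, Lamb2 and Lama4 lay lower and Lamc3 lay higher in every shZdhhc17 library than in every shSCR library, and none of the 3 passed the threshold. Lama4 had no unadjusted p under 0.05 by DESeq2, and Lamc3 had none by limma voom. Lamb2 encodes the beta2 chain, known from vessel walls, kidney glomeruli and nerve-muscle junctions. Lamb2 (ENSMUSG00000052911.10) was at 49.1, 70.8 and 76.3 CPM in shSCR and at 42.3, 39.9 and 37.1 in shZdhhc17. All shZdhhc17 libraries lay below all shSCR libraries, and they differed little from one another, by 1.14 times from lowest to highest against 1.55 times in shSCR. The log2 fold change was -0.72 ± 0.18 (SE; interval -1.14 to -0.30; edgeR adjusted p = 0.307), or 1.65-fold less, and the authors' deposited table gives -0.70 with a q of 0.0792. By DESeq2 it passed only without shSCR replicate 1 (log2 fold change -0.86; DESeq2 adjusted p = 0.000247). Lamb1 (ENSMUSG00000002900.18), the beta chain of laminin-411 and laminin-511, was at 341, 284 and 294 CPM in shSCR and 319, 296 and 232 in shZdhhc17, with a log2 fold change of -0.12 (interval -0.53 to 0.30; edgeR adjusted p = 0.819). The ratio of Lamb2 to Lamb1 counts was 0.144, 0.249 and 0.260 in shSCR and 0.132, 0.135 and 0.159 in shZdhhc17, and shSCR replicate 1 fell within the shZdhhc17 range. Summed smooth muscle and pericyte markers overlapped (350.0 to 422 CPM in shSCR and 365 to 464 in shZdhhc17), as did vascular endothelial markers (307 to 349 and 271 to 353 CPM). Summed stellate cell and fibroblast markers did not overlap and were lower in shZdhhc17 (5018 to 9383 CPM in shSCR and 3956 to 4813 in shZdhhc17). The part of these cell types in the Lamb2 difference was not tested.

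Lama4 (ENSMUSG00000019846.12), the alpha chain of vascular laminin-411, was at 31.6, 37.0 and 34.6 CPM in shSCR and at 18.4, 29.0 and 27.5 in shZdhhc17. The groups did not overlap, and shZdhhc17 replicate 1 was the lowest (log2 fold change -0.46 ± 0.19 SE; interval -0.90 to -0.02; edgeR adjusted p = 0.420). Without shZdhhc17 replicate 1 the log2 fold change was -0.28. Vascular endothelial markers were also lowest in shZdhhc17 replicate 1, at 271 CPM, with 5 of 10 positive, and their sums overlapped between the groups. Stellate cell and fibroblast markers were lowest in that library too, at 3956 CPM. Their sums did not overlap (5018 to 9383 CPM in shSCR and 3956 to 4813 in shZdhhc17). The part of these cell types in the Lama4 difference was not tested. Lama5 (ENSMUSG00000015647.10) was at 358, 486 and 500 CPM in shSCR and at 422, 391 and 283 in shZdhhc17. Its groups overlapped (log2 fold change -0.29 ± 0.22 SE; interval -0.81 to 0.22; edgeR adjusted p = 0.618). Lamc1 (ENSMUSG00000026478.15), the gamma chain of laminin-411 and laminin-511, was at 258, 312 and 297 CPM in shSCR and at 277, 281 and 222 in shZdhhc17, with a log2 fold change of -0.15 (interval -0.54 to 0.23; edgeR adjusted p = 0.740). Lama1, of embryonic basement membranes, was at 6.43 ± 0.927 and 7.08 ± 1.09 CPM and Lama2, of muscle and nerve, at 6.92 ± 0.613 and 7.19 ± 1.06 CPM, in shSCR and shZdhhc17 in that order (SD, n = 3 each).

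Lamc3 (ENSMUSG00000026840.15), the gamma3 chain, was at 0.654, 1.05 and 0.725 CPM in shSCR and at 1.26, 1.31 and 4.02 in shZdhhc17. These values rest on 12, 20 and 13 counts against 20, 22 and 61. shZdhhc17 replicate 3 stood far above the others. The log2 fold change was 1.43 ± 0.53 (SE; interval 0.18 to 2.67; edgeR adjusted p = 0.405), and without that library it was 0.67. Antisense transcripts overlap 6.27% of the exonic bases of Lamc3 and 7.66% of those of Itgb4, and whether reads were counted by strand is not stated in the labels.

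Lama3 and Lamb3, which encode epithelial laminin chains, ran in parallel from library to library, and their groups overlapped. Lama3 (ENSMUSG00000024421.17) was at 45.8, 18.1 and 21.5 CPM in shSCR and at 37.7, 21.9 and 13.5 in shZdhhc17. Lamb3 (ENSMUSG00000026639.19) was at 47.0, 22.5 and 30.8 CPM in shSCR and at 52.0, 28.2 and 17.8 in shZdhhc17. Both were highest in replicate 1 of each group and lowest of all in shZdhhc17 replicate 3. The log2 fold changes were -0.22 and -0.03 with intervals from -1.29 to 0.84 and -1.001 to 0.93 (edgeR adjusted p = 0.866 and 0.985). Each was positive without shSCR replicate 1 (0.30 and 0.30) or without shZdhhc17 replicate 3 (0.066 and 0.26). The ratio of Lamb3 to Lama3 counts stayed between 1.03 and 1.43 in all libraries. Itga2 had its highest and lowest values in the same libraries as Lamb3, at 82.9, 50.0 and 57.3 CPM in shSCR and 83.7, 65.6 and 40.8 in shZdhhc17. The summed carcinoma epithelial markers were 3242, 2125 and 2973 CPM in shSCR and 3196, 2277 and 1773 in shZdhhc17, also highest in replicate 1 of each group and lowest in shZdhhc17 replicate 3. The part of tumour cell content in these levels was not tested.

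**Figure D5:**
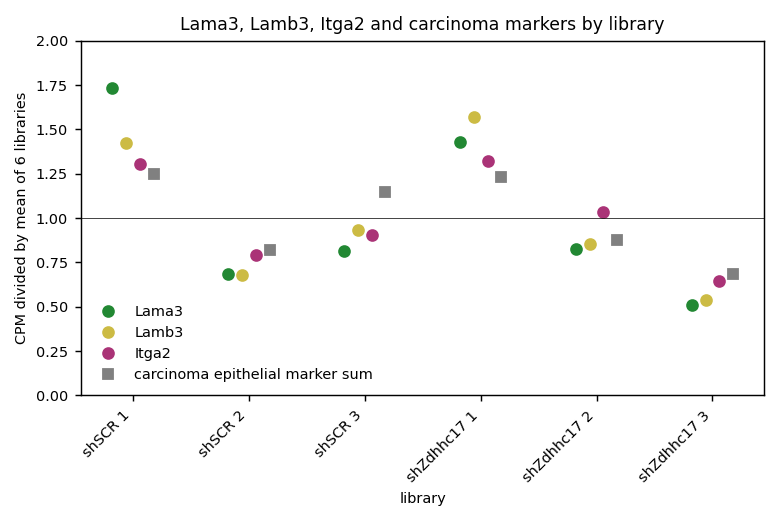
CPM divided by the gene's mean over 6 libraries for Lama3, Lamb3 and Itga2, and the same for the summed carcinoma epithelial markers (grey squares), by library. All 4 are highest in the libraries of replicate 1 and lowest in shZdhhc17 replicate 3.

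shZdhhc17 replicate 3 was the lowest of the 6 libraries for 13 of the 32 members, 40.6%, against 14.5% of all tested genes. shSCR replicate 1 was the lowest for 8 members, 25.0%, against 14.6% of all tested genes. The highest value fell in shZdhhc17 replicate 1 for 8 members, 25.0%, against 18.96% of all tested genes. These are counts within single libraries and carry no test.

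Partners of integrins and laminins were taken from 6 lists, and none held a gene past the threshold by edgeR. The median over all tested genes, for comparison, was 0.0017, and 11.4% of them had an unadjusted p under 0.05. Of 18 basement membrane genes, 9 had a positive log2 fold change (median 0.0093), with 3 higher and 2 lower at an unadjusted p under 0.05. Col15a1, a collagen of vessel and muscle basement membranes, was lower (91.2 ± 22.2 against 164 ± 14.6 CPM in shSCR; log2 fold change -0.85 ± 0.19 SE; edgeR adjusted p = 0.307), and DESeq2 called it. Ntn4, a netrin that binds laminin, was higher (20.7 ± 2.95 against 13.4 ± 1.43 CPM), as was Col4a4 at a low level (1.57 ± 0.486 against 0.338 ± 0.248 CPM), and Papln was lower (6.35 ± 0.721 against 10.1 ± 2.26 CPM; SD, n = 3 each). Among 19 tested ligands of integrins other than laminin, 15 were negative (median -0.13), with 4 lower and 1 higher at an unadjusted p under 0.05. The lower ones include Tnc, a matrix glycoprotein of tumour stroma (107 ± 17.1 against 166 ± 11.6 CPM; log2 fold change -0.64 ± 0.16 SE), and Tgfb3 (57.5 ± 2.51 against 84.1 ± 12.2 CPM). Jam2, a junction protein of endothelium, was higher (28.3 ± 2.41 against 19.6 ± 3.40 CPM; SD, n = 3 each).

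Of 28 adaptors and activators of integrins 17 were positive (median 0.068), and only Tns1, a tensin that binds beta subunit tails, had an unadjusted p under 0.05 (117 ± 15.9 against 78.7 ± 8.71 CPM; SD, n = 3 each; log2 fold change 0.57 ± 0.15 SE; edgeR adjusted p = 0.315). Fermt1, the epithelial kindlin, was at 16.7 ± 4.01 CPM against 23.3 ± 4.54 (SD, n = 3 each). The 15 signalling kinases and their partners had a median of -0.11, with 0 at an unadjusted p under 0.05, and Fyn and Src had log2 fold changes of -0.40 and -0.25. Of 10 laminin receptors and their processing enzymes other than integrins, 7 were positive (median 0.076), and Bcam, a receptor for the laminin alpha5 chain, stood at 23.5 ± 2.57 CPM against 16.6 ± 2.66 (SD, n = 3 each; log2 fold change 0.50; edgeR adjusted p = 0.378). Of 10 hemidesmosome and tetraspanin partners 6 were negative (median -0.034), and 0 had an unadjusted p under 0.05.

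In the authors' deposited table of gene set enrichment, 25 sets are named for integrins, laminins, basement membranes, hemidesmosomes, focal adhesion or matrix receptors. Of these, 11 have a positive and 14 a negative normalized enrichment score, and the smallest q is 0.180. That q belongs to the Biocarta integrin pathway, which has the lowest score, -1.62. The highest score is that of Reactome integrin signaling, 1.55 (q = 0.318 in the authors' deposited table). Neither of these sets has a member in its leading edge. Hemidesmosome assembly has a score of -1.46 (q = 0.320), and laminin interactions 1.36 (q = 0.475), both in the authors' deposited table. Itgb4 stands in the leading edge of hemidesmosome assembly and Lamc3 in that of laminin interactions.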

How the data were processed

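Messenger RNA of dissected liver metastases was sequenced in 3 shSCR and 3 shZdhhc17 libraries, prepared with a stranded kit per the labels. The authors deposited raw counts per gene; FastQC 0.11.8, STAR 2.6.1, HTSeq, DESeq2 1.34.0 and the genome GRCm39 are named without role or order in the submitters' processing notes, and the strand setting was not stated in the labels. Log2 fold changes with p-values and q-values from DESeq2, and enrichment scores of gene sets, are the authors' own, per the deposited column description. That description names another contrast for the enrichment table, whose own labels name shZdhhc17 against shSCR.

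From the counts, 15567 of 24167 genes passed edgeR's filterByExpr and were tested with its quasi-likelihood test (glmQLFTest, robust, TMM scaling; edgeR 4.0.16, limma 3.58.1, DESeq2 1.42.0, R 4.3.3), with Benjamini-Hochberg adjustment over all tested genes and a threshold of 0.05. The biological coefficient of variation was 0.235 with 4 residual degrees of freedom. Depth ran from 15832837 to 19186615 counts, and genes with few counts have wide intervals. CPM uses TMM-scaled totals; levels per kb use exonic lengths of GENCODE M21 on GRCm38, another build than the counts. The scripts were tested on simulated data.

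The genes, marker lists and pathway lists were chosen with earlier results of these data known. Values in every library are given for members with an unadjusted p under 0.05 or groups without overlap, for the most abundant member of each role, for chains of epithelial laminin, laminin-411 and laminin-511, and for Itga6 and Itgb4; other members are given by mean or by library where a pattern over libraries is described. The counts and medians cover all tested members, of which 1 is not reported here by itself. From each pathway list up to 4 genes with the smallest unadjusted p could be named. Alternatives were other scalings and filters, DESeq2, limma voom, a replicate block, hepatocyte marker level as a covariate, and leaving out each library. Fits without robust estimation, and DESeq2 without each library, were added after seeing the data. Promoters come from RefSeq and matched 22 members; protein sequences were not used here.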

Additional observations from a re-analysis of the deposited data

How the results depend on the processing

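The count of 0 genes called by edgeR became 3 without a filter, 6 with hepatocyte marker level as a covariate and 204 with DESeq2, which called 1 integrin or laminin gene (Itga11) and 1 basement membrane gene (Col15a1). With library totals alone the member median was -0.16, and Itga6, Itgav and Itgb1 turned to -0.067, -0.090 and -0.029. There Itga8, Itga4, Lama1 and Lama2 also turned, to -0.050, -0.061, -0.0021 and -0.079. With the covariate Itga6, Itga8 and Lama2 were at -2.5e-06, -0.097 and -0.0020. Itga2 turned positive with DESeq2 (0.016), without a filter (0.0063) and in edgeR with the scaling of DESeq2 (0.014). The direction of Itga11, Itga10, Itgb4, Itgb8, Lama4, Lamb2 and Lamc3 was the same in every alternative run. The labels do not say whether replicate numbers pair the samples. Deviations of same-numbered libraries from their group mean correlated at -0.031, 0.25 and -0.031, and those of differently numbered libraries at -0.35 to 0.26. With so few libraries these values cannot decide whether the samples were paired. With a replicate block 0 genes were called, 4 members had an unadjusted p under 0.05 and the member median was -0.076.

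Leaving out 1 library at a time, edgeR called 0 to 1 genes and 0 members, 2 to 5 members had an unadjusted p under 0.05 (5.90% to 18.2% of all tested genes), and 7 to 11 members had groups without overlap (22.4% to 37.3% of all tested genes). The 11 came without shSCR replicate 1 and without shZdhhc17 replicate 1, where the shares of all genes were 37.3% and 36.9%. Without shSCR replicate 2 and without shZdhhc17 replicate 2 there were 7 of 32, or 21.9%, beside 24.3% and 22.8% of all tested genes. Without shSCR replicate 3 and without shZdhhc17 replicate 3 there were 8, beside 23.9% and 22.4%. The 18.2% came without shSCR replicate 1, where 4 members had an unadjusted p under 0.05. Log2 fold changes that changed sign ran from -0.045 to 0.50 for Itgal, -0.68 to 0.30 for Lama3, -0.53 to 0.30 for Lamb3, -0.012 to 0.18 for Itgb1, -0.092 to 0.20 for Itga6, -0.069 to 0.14 for Itgav, -0.24 to 0.051 for Itga9, -0.16 to 0.073 for Itga1 and -0.20 to 0.010 for Lamb1. The sign also changed for Itga8 (-0.26 to 0.48), Itga4 (-0.16 to 0.36), Itga2 (-0.25 to 0.24), Itgam (-0.0030 to 0.38) and Lama2 (-0.0089 to 0.18). None of these had passed the threshold, and the cause was not tested.

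DESeq2, run without each library after seeing the data, called 691, 115 and 101 genes without shSCR replicates 1, 2 and 3, and 371, 88 and 24 without shZdhhc17 replicates 1, 2 and 3. Without shSCR replicate 1 it called 2 members (Itga11 and Lamb2), 1 basement membrane gene, 1 laminin receptor other than integrins and 3 other integrin ligands, and Itgal, Lama3 and Lamb3 were at -0.025, 0.32 and 0.32. Without shSCR replicate 2, 3 members had an unadjusted p under 0.05 (5.93% of all genes). Without shSCR replicate 3, Itga6, Itgav and Itga9 were at -0.040, -0.0039 and 0.046. Without shZdhhc17 replicate 1 it called 1 basement membrane gene and 1 integrin ligand, and Itga1, Itga6, Itgav, Itga9 and Itgb1 were at 0.077, -0.086, -0.064, 0.036 and -0.0032. Without shZdhhc17 replicate 2 it called 1 member and 1 basement membrane gene, and Lamb3 was at 0.078. Without shZdhhc17 replicate 3, 2 members had an unadjusted p under 0.05 (4.40% of all genes), and Lama3, Lamb1 and Lamb3 were at 0.082, 0.026 and 0.28. Depth limits Itgb2l, Itgad and Itgb6, with at most 25 counts per library, and to a lesser degree Itga11 and Lamc3.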
